A study of Mus musculus with 16 samples.

Results

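The core loop of the circadian clock was followed in mouse kidney through 9 genes: Bmal1, Clock, Npas2, Nfil3, Per1, Per2, Per3, Cry1 and Cry2. They were chosen by name as the activators and repressors of the loop, and are 9 of 40879 gene symbols counted and 9 of 14665 genes with enough counts to be tested. RNA of whole kidney was read by QuantSeq, which sequences the 3' end of each transcript, and given as counts per gene symbol. All 16 libraries are of wild-type male C57BL/6 mice. Young has 5 libraries of control mice of 3 months of age. Old has 5 libraries of control mice left to age naturally, and no source used here gives their age when kidneys were taken. Old+YM has 3 libraries of old mice given Yukmijihwang-tang, and Old+PM has 3 of old mice given Palmijihwang-tang. These herbal formulas were dosed orally at 100 mg/kg/day, 5 days per week, starting at 19 months and ending at 24 months. Mice of all 3 aged groups had first been acclimatized for 5 months. One line of the labels names YM as the agent of the PM group, and the group names were followed here. The hour at which kidneys were taken is not given either. No label says that each library is a mouse of its own, so p-values measure the spread between these libraries, which may be technical.

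In the loop, the proteins BMAL1 and CLOCK, or NPAS2 in place of CLOCK, pair and switch on genes through E-box sequences, among them the Per and Cry genes. PER and CRY proteins then hold the pair back, so the transcripts of activators and repressors peak at different times of day in most tissues, kidney included. A second loop runs through the REV-ERB repressors and the ROR activators, which set Bmal1, Npas2 and Nfil3 through ROR elements, and through DBP and NFIL3, which compete at D-boxes.

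Promoter letters from RefSeq (GRCm38.p6) are shown for the members that changed in Old kidneys and hold one of the motifs of the loop near their start. Windows from 250 bases before to 50 after an annotated start were read for 8 of the 9 members, 12 windows in all, and Per2 had none in the table. In the stretches below, written 5′ to 3′ on the coding strand, capitals mark the motif, which is a ROR element in Bmal1, an E-box in Per1, D-boxes in Per3 and an E-box variant in Cry2.
Bmal1: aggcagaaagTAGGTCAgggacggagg
Per1: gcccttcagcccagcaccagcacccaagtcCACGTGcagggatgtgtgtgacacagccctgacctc
Per3: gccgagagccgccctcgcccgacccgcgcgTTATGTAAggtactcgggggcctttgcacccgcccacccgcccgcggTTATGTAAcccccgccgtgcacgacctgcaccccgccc
Cry2: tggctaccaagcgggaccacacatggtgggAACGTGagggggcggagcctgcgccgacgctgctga
The Bmal1 stretch lies at chr7:113207531-113207557 on the plus strand, wholly in an exon, and its match to TAGGTCA starts 30 bases after the start. The Per1 stretch is chr11:69098753-69098818 on the plus strand, with CACGTG 166 bases before the start. For Per3, chr4:151044786-151044900 on the minus strand holds TTATGTAA at both 205 and 158 bases before the start. The Cry2 stretch is chr2:92434200-92434265 on the minus strand, and AACGTG, 166 bases before the start, is CACGTT read on the other strand. Of the members not called in Old, Cry1 holds CACGTG 60 bases and CACGTT 79 bases before its start. Nfil3, also not called, holds TAGGTCA on the other strand 12 bases before its start. Motifs were searched on both strands, and windows of Clock and Npas2 matched none of them. Of all 32851 windows of this length in the table, the E-box CACGTG was held by 7.15% and its variant CACGTT by 4.68%. The D-box TTATGTAA was held by 0.938% and the other D-box searched, TTACGTAA, by 0.119%. The ROR element TAGGTCA was held by 2.61%, a second form of it, TGGGTCA, by 3.98%, and the cAMP response element TGACGTCA by 1.79%. A match is a description of the letters only.

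Libraries held 8223008 to 10914515 counts, so 1 CPM (the counts-per-million unit, on library sizes scaled by TMM) stood for 7.617 to 11.32 counts. Libraries of a group all differed by more than sampling noise (lowest chi-square per degree of freedom 7.24). Mitochondrial transcripts made up 14.98% to 27.7% of counts. Proximal tubule markers, which mark the main cell type of kidney cortex, summed to 35150 to 42970 CPM in Young and 14730 to 27080 CPM in Old, with 2 of 5 (Kap and Slc22a6) called lower. Most of that sum was Kap, with a mean of 32250 CPM in Young and 15930 CPM in Old. The other 3 (Lrp2, Slc34a1 and Slc5a2) were not called, with Slc34a1 at 4937 and 4413 CPM. B and plasma cell markers summed to 4.094 to 15.06 CPM in Young and 115.6 to 188.2 CPM in Old, and were highest in Old+YM 3 at 400.4 CPM. Macrophage markers reached 480.1 CPM and T cell markers 137 CPM in Old 5, against at most 188.1 and 11.63 CPM in the other Old libraries. In Young they summed to 102.7 to 131.3 and 2.224 to 3.045 CPM. The macrophage sum was as low as 92.01 CPM in Old, below every Young library. Its median was 121.3 CPM in Old and 114.6 CPM in Young. Of 7 macrophage markers 5 were called higher in Old (Adgre1, C1qa, C1qb, C1qc and Mrc1), and of 3 T cell markers tested 1 (Ccl5). The macrophage marker Csf1r had a lower mean in Old, 52.46 CPM against 73.11 CPM in Young, and was not called. None of either list was called lower, where 6.47% of all genes were called higher. The adrenal enzymes Cyp11b1 and Cyp11b2 had 0 counts in every library. In bulk kidney, fewer cells of a type and less RNA per cell cannot be told apart, and the part of these markers in the results on the clock genes was not tested.

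A pair of aged libraries stood apart in the clock genes themselves. Old 4 lay within the Young range for 7 of the 9 members, and Old+YM 3 for 5 of 9. The other 9 aged libraries lay within it for 0 or 1 member each. In those 9, Per1, Per2, Per3 and Cry2 were above every Young library, and Bmal1, Clock and Npas2 were below every Young library. The counts against the Young range were made after the values had been seen. On the first principal component of genes other than the clock genes, which held 31.2% of the variance, Old 4 (-5.671) and Old+PM 3 (-14.85) were the only aged libraries on the negative side with the Young libraries. Old+YM 3 lay at 23.28 on this component, near Old+YM 1 (22.63) and Old+YM 2 (20.97). Results that rest on these libraries are also given without them.

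**Figure D1:**
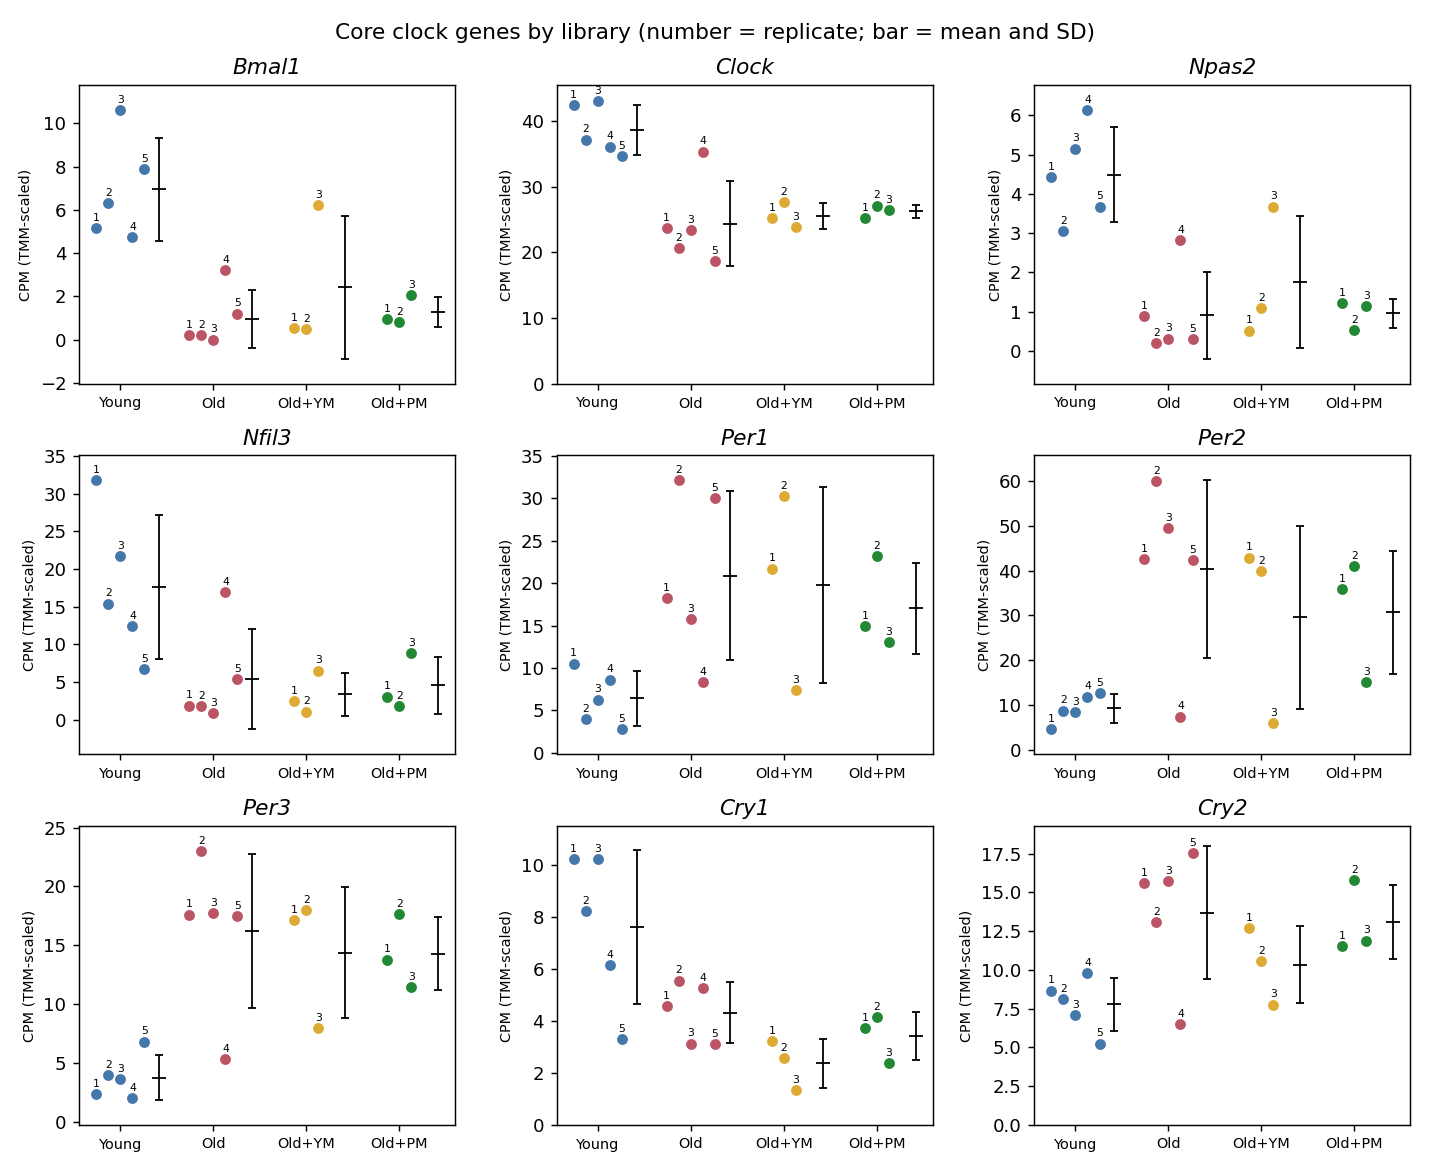
CPM on TMM-scaled library sizes (vertical axis) of the 9 clock loop genes in Young, Old, Old+YM and Old+PM; each point is 1 library with its replicate number, and the black bars give mean and SD. The Per2 panel shows Old 4 at 7.397 CPM and Old+YM 3 at 6.026 CPM beside the Young libraries, and the other aged libraries from 15.09 to 60 CPM.

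The comparison of Old with Young addressed natural ageing. Since the hour of collection is not given, a difference between groups in these genes cannot be told apart from a difference in hour. Of the 9 members, 7 passed the test, 4 higher in Old (Per1, Per2, Per3 and Cry2) and 3 lower (Bmal1, Clock and Npas2). Nfil3 and Cry1 did not pass. All 9 had an unadjusted edgeR p under 0.05, beside 28.1% of all genes. With limma-voom 5 members passed, 1 higher (Per3) and 4 lower (Bmal1, Clock, Npas2 and Nfil3). Over all 14665 genes tested, 13.6% were called, 6.47% higher and 7.13% lower (949 and 1046 genes, or 1104 and 758 with upper quartile scaling, where the same 7 members passed). The median size of the log2 change was 1.71 over the members and 0.26 over all genes tested. The Old and Young libraries did not overlap for 2 members, Bmal1 and Npas2, where 9.19% of all genes did not overlap. All 9 members passed the filter on low counts, but Bmal1 and Npas2 have few counts in most aged libraries and passed it mainly through libraries where they are high.

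Without Old 4 the count of changed members was 8, with Nfil3 added. It fell to 3 (Clock, Npas2 and Per3) without Old 5 or without Young 3, and to 4 without Old 1, Old 2, Old 3 or Young 2. Over all genes the number called varied too, from 1208 without Old 5 to 2656 without Old 4, and was 1995 with all libraries. Clock, Npas2 and Per3 were called whichever of the 16 libraries was left out. Per1 and Cry2 were each called in 12 of 16 such fits, Per2 in 8 and Bmal1 in 5.

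Bmal1 (chromosome 7, 113207465 to 113314126, plus strand, listed as Arntl in GENCODE M21) encodes the partner of CLOCK or NPAS2 in the activating pair. The Young libraries had 5.159, 6.293, 10.62, 4.741 and 7.877 CPM. In Old 1 to 5 the values were 0.1989, 0.1911, 0, 3.212 and 1.197 CPM, which are 2, 2, 0, 33 and 12 counts. Every Old library lay below every Young library, and Old 4 was the highest of the Old ones. The count of 0 in Old 3 allows up to 3 counts. The mean fell from 6.94 ± 2.39 CPM (SD, n = 5) to 0.960 ± 1.34 CPM (n = 5), log2 -2.83 (SE 0.84, edgeR adjusted p = 0.0377). Without Old 4 the change was log2 -4.08 (edgeR adjusted p = 0.00463), and it was not called with no filter on low counts (edgeR adjusted p = 0.085). The antisense gene Gm45355 shares 33 exon bases with Bmal1, and without the strand setting of the counts their reads cannot be told apart there.

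Clock (chromosome 5, 76209868 to 76304792, minus strand), the usual partner of BMAL1, varied least of the members within every group. Its Young values were 42.41, 37.15, 42.97, 36.09 and 34.66 CPM. The Old libraries had 23.67, 20.64, 23.44, 35.33 and 18.65 CPM. Only Old 4 reached the Young range, and the other 4 lay well below it. The mean fell from 38.7 ± 3.79 CPM (SD, n = 5) to 24.4 ± 6.48 CPM (n = 5), log2 -0.67 (SE 0.14, edgeR adjusted p = 0.00421), and the change was log2 -0.83 without Old 4.

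Npas2 (chromosome 1, 39193731 to 39363236, plus strand) encodes a relative of CLOCK that can take its place. It had 4.437, 3.045, 5.156, 6.141 and 3.676 CPM in Young. In Old it had 0.895, 0.1911, 0.3126, 2.823 and 0.2992 CPM, or 9, 2, 3, 29 and 3 counts. No Old library reached the lowest Young library, and Old 4 came nearest. The change was log2 -2.29 (SE 0.60, edgeR adjusted p = 0.0152), and log2 -3.35 without Old 4 (edgeR adjusted p = 0.000571).

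Nfil3 (chromosome 13, 52967209 to 52981073, minus strand) encodes a repressor that binds D-boxes. The Young values spread widely, at 31.78, 15.43, 21.74, 12.39 and 6.696 CPM. The Old values were 1.889, 1.815, 0.9378, 16.94 and 5.386 CPM. Old 4 lay among the Young libraries and the other 4 below them. The difference of log2 -1.71 (SE 0.75) did not pass (edgeR adjusted p = 0.158), and without Old 4 it was log2 -2.80 and passed (edgeR adjusted p = 0.0133). With limma-voom it also passed, at log2 -2.31 (adjusted p = 0.0477).

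Per1 (chromosome 11, 69095217 to 69109960, plus strand) is the Per gene best known for a quick answer to light and to glucocorticoids. It had 10.52, 3.958, 6.268, 8.619 and 2.757 CPM in Young. In Old it had 18.2, 32.1, 15.73, 8.37 and 30.02 CPM. All Old libraries but Old 4 lay above the Young range. Per1 rose by log2 1.69 (SE 0.46, edgeR adjusted p = 0.0274), a call lost with limma-voom (adjusted p = 0.069) and with no filter on low counts (edgeR adjusted p = 0.0573). Without Old 4 it was log2 1.90 (edgeR adjusted p = 0.00829).

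Per2 (chromosome 1, 91415982 to 91459324, minus strand) encodes a repressor of the BMAL1 and CLOCK pair. Young had 4.54, 8.729, 8.493, 11.85 and 12.6 CPM. Old had 42.66, 60, 49.49, 7.397 and 42.39 CPM. Old 4 fell inside the Young range, and the other 4 were at least 42.39 CPM. The mean rose from 9.24 ± 3.20 CPM (SD, n = 5) to 40.4 ± 19.8 CPM (n = 5), log2 2.13 (SE 0.59, edgeR adjusted p = 0.0322). This call was lost with limma-voom (adjusted p = 0.145) and with no filter on low counts (edgeR adjusted p = 0.0535). Without Old 4 the rise was log2 2.41 (edgeR adjusted p = 0.00641).

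Per3 (chromosome 4, 151003652 to 151044665, minus strand, within the span of Camta1 but with 0 exon bases shared) is the Per gene least needed for rhythm. Its Young values were 2.373, 3.958, 3.64, 2.047 and 6.827 CPM. Its Old values were 17.6, 23.02, 17.71, 5.353 and 17.46 CPM. Only Old 4 overlapped with Young. The rise was log2 2.12 (SE 0.38, edgeR adjusted p = 0.00186) and had the smallest adjusted p of the members. It was log2 2.35 without Old 4 (edgeR adjusted p = 7.46e-05).

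Cry1 (chromosome 10, 85131700 to 85185064, minus strand) encodes a strong and late repressor of the loop. Young had 10.22, 8.221, 10.21, 6.141 and 3.282 CPM. Old had 4.574, 5.541, 3.126, 5.256 and 3.092 CPM. Young 5 lay among the Old libraries, and Old 4 did not stand apart here. The difference of log2 -0.82 (SE 0.30) did not pass (edgeR adjusted p = 0.0772), nor did it without Old 4 (log2 -0.88, edgeR adjusted p = 0.0638). Among the Per and Cry genes, Cry1 alone had a lower mean in Old.

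Cry2 (chromosome 2, 92403646 to 92434043, minus strand) encodes the second cryptochrome. Young had 8.667, 8.12, 7.077, 9.804 and 5.251 CPM. Old had 15.61, 13.09, 15.73, 6.521 and 17.56 CPM. Old 4 again lay in the Young range and the rest above it. Cry2 rose by log2 0.81 (SE 0.23, edgeR adjusted p = 0.0253), a call lost with limma-voom (adjusted p = 0.0635). Without Old 4 its edgeR adjusted p was 0.00113. D930015M05Rik, on the opposite strand, shares 295 exon bases with Cry2, and their reads cannot be told apart there without the strand setting.

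The treated groups addressed whether either formula shifts the aged kidney. The 3 Old+YM libraries had 0.5169, 0.4861 and 6.23 CPM of Bmal1. For Npas2 they had 0.5169, 1.094 and 3.677 CPM. Nfil3 stood at 2.481, 1.094 and 6.537 CPM. In all 3 genes Old+YM 3 was the highest of the 3 libraries, inside the Young range for Bmal1 and Npas2. Clock had 25.22, 27.71 and 23.8 CPM, with no library apart. The Per genes showed the reverse order, with Per1 at 21.71, 30.26 and 7.354 CPM. Per2 was at 42.9, 39.86 and 6.026 CPM. Old+YM 3 was the lowest library for both. Per3 had 17.16, 17.98 and 7.967 CPM, all above the Young range. Cry1 had 3.205, 2.552 and 1.328 CPM, and Old+YM 3 was the lowest of all 16 libraries. Cry2 had 12.72, 10.57 and 7.762 CPM, where Old+YM 3 lay in the Young range.

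In Old+PM, Bmal1 had 0.9309, 0.7953 and 2.067 CPM, and Npas2 had 1.21, 0.5302 and 1.137 CPM. All of these were below the Young range. Nfil3 had 3.072, 1.767 and 8.89 CPM, where Old+PM 3 reached into Young. Clock was nearly level at 25.23, 27.13 and 26.46 CPM. Per1 was at 14.89, 23.15 and 13.02 CPM, and Per2 at 35.93, 41.09 and 15.09 CPM. Each of these 6 values lay above the Young range, with Old+PM 3 the lowest for both genes. Per3 had 13.78, 17.67 and 11.47 CPM, and Cry2 had 11.54, 15.82 and 11.89 CPM, all above Young. Cry1 had 3.724, 4.153 and 2.378 CPM, with Old+PM 3 below the Young range.

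Against Old, no member was called in Old+YM with edgeR, DESeq2 or limma-voom, where 0.0205% of all genes were called with edgeR. One member had an unadjusted edgeR p under 0.05, against 9.47% of all genes. That was Cry1, at 2.36 CPM on average against 4.32 CPM in Old, log2 -0.87 (SE 0.38, edgeR adjusted p = 0.496). Bmal1 had the largest difference but also the widest error, log2 1.33 (SE 0.96, edgeR adjusted p = 0.676). Leaving out Old+YM 3 turned it to log2 -0.92 (SE 1.10). Old and Old+YM overlapped for all 9 members, where 9.12% of all genes did not overlap.

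Old+PM against Old gave 0 changed members with edgeR, DESeq2 and limma-voom, and 0 with an unadjusted edgeR p under 0.05, where 6.16% of all genes had one and 0% were called. Differences ran from log2 -0.39 (SE 0.64) for Per2 to log2 0.37 (SE 1.02) for Bmal1. Old+PM against Old+YM also gave 0 changed members with these tools, beside 0% of all genes called with edgeR. No member had an unadjusted edgeR p under 0.05 there, beside 12.8% of all genes. Its widest difference was Bmal1, log2 -0.96 (SE 1.07), which became log2 1.29 without Old+YM 3. In both comparisons the libraries overlapped for all 9 members, where 4.02% and 23.8% of all genes did not overlap.

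**Figure D2:**
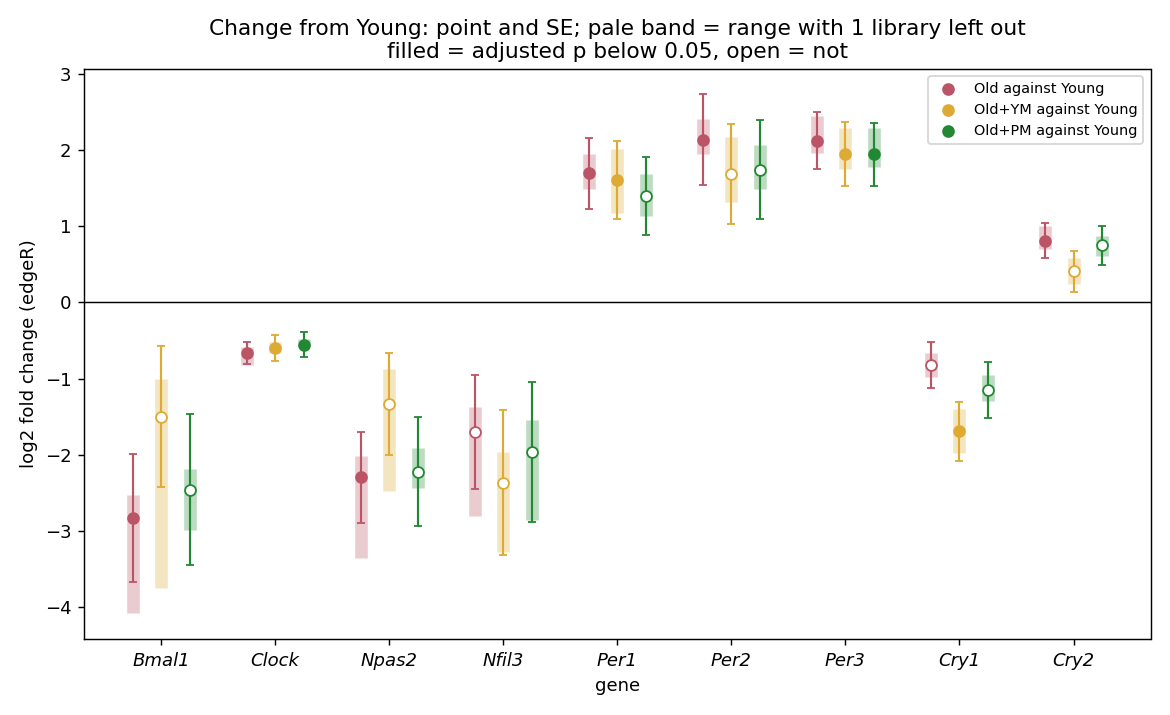
log2 fold change from Young (vertical axis, edgeR) of the 9 members (horizontal axis) in Old, Old+YM and Old+PM, with SE bars; filled points passed at an adjusted p of 0.05, open ones did not, and pale bands show the range when 1 library is left out. Bmal1, Clock, Npas2, Nfil3 and Cry1 lie below 0 and Per1, Per2, Per3 and Cry2 above 0 in all 3 comparisons, also in every band.

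The treated groups were also set against Young, sharing the Young libraries with the comparison above, so the 3 comparisons are not independent. In Old+YM against Young 4 members changed, Per1 and Per3 higher and Clock and Cry1 lower, beside 16.1% of all genes (6.42% higher and 9.63% lower, or 942 and 1412 genes, and 1181 and 1040 with upper quartile scaling). An unadjusted edgeR p under 0.05 was found for 6 of the 9, beside 32.2% of all genes. Per3 rose by log2 1.94 (SE 0.42, edgeR adjusted p = 0.006) and Per1 by log2 1.61 (SE 0.51, edgeR adjusted p = 0.0468). Clock fell by log2 0.60 (edgeR adjusted p = 0.0206). Cry1 fell by log2 1.69 (SE 0.38, edgeR adjusted p = 0.00609) and did not overlap with Young. Clock, Nfil3 and Per3 did not overlap either, where 26.1% of all genes did not. Without Old+YM 3, 5 members were called: Bmal1 and Per2 were added, at log2 -3.75 and 2.17, and Clock was lost (edgeR adjusted p = 0.0953). Without Young 3 or Old+YM 1 only Per3 and Cry1 were called. Over all genes 2354 were called with all libraries and 1060 without Old+YM 1. Per3 and Cry1 were called in 16 of 16 fits with 1 library left out, Clock in 12 and Per1 in 5, with an adjusted p for Per1 of up to 0.207 (without Old+YM 2). The call of Per1 was also lost with limma-voom (adjusted p = 0.114), with no filter (0.096) and with libraries of the 2 groups only (0.0581).

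In Old+PM against Young 2 members changed, Per3 higher by log2 1.94 (SE 0.41, edgeR adjusted p = 0.0119) and Clock lower by log2 0.56 (edgeR adjusted p = 0.0488), beside 6.57% of all genes (2.93% higher and 3.64% lower, or 429 and 534 genes, and 577 and 347 with upper quartile scaling). An unadjusted edgeR p under 0.05 was found for 8 of the 9, beside 21.9% of all genes. The libraries did not overlap for 7 members, all but Nfil3 and Cry1, where 15.3% of all genes did not overlap. Per2 differed by log2 1.74 (SE 0.65, edgeR adjusted p = 0.134) and Npas2 by log2 -2.22 (SE 0.72, edgeR adjusted p = 0.0687). The number called varied with the libraries in the fit: it was 7 when only Young and Old+PM entered the fit, 4 without Old 4, and 0 without Old+PM 2. It was 1 (Per3) without Old+PM 3 and without most other single libraries. Over all genes the number called varied too, from 185 without Old+PM 2 to 1279 without Old 5, and was 963 with all libraries.

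In order of group means, Young was highest for Bmal1, Clock, Npas2, Nfil3 and Cry1 and lowest for Per1, Per2, Per3 and Cry2. Between the 3 aged groups no step in that order passed for any member, with edgeR adjusted p from 0.599 to 0.999. The step between Young and its neighbour passed for Clock (edgeR adjusted p = 0.0488) and Per3 (0.0119) and for no other member. For Cry2 that step, to Old+YM, had an adjusted p of 0.306.

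Most members varied more between libraries of one group than the median gene. These were 8 of the 9 in Young, 9 in Old, 8 in Old+YM and 7 in Old+PM. The median SD of their log2 CPM was 0.57 in Young, 0.81 in Old, 1.05 in Old+YM and 0.43 in Old+PM, beside 0.29, 0.31, 0.20 and 0.27 over all genes tested. Clock was the least variable member in each group, with an SD of 0.14 in Young and 0.05 in Old+PM. Bmal1 was the most variable in Old (1.63) and Old+YM (1.84), and Nfil3 in Young (0.84) and Old+PM (1.12). Set beside genes of like level, a comparison chosen after the values had been seen, Bmal1 varied less than their median SD in Young (0.46 against 0.60) and more in Old (1.63 against 0.585). Clock (0.14 against 0.213) and Npas2 (0.379 against 0.624) also varied less than genes of like level in Young, and the remaining members more. Without Old 4 the median over the members in Old was 0.397, and without Old+YM 3 that in Old+YM was 0.185. The value of 0.185 lies below the 0.20 that all genes had in Old+YM with every library in. These SDs are descriptions with no test.

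**Figure D3:**
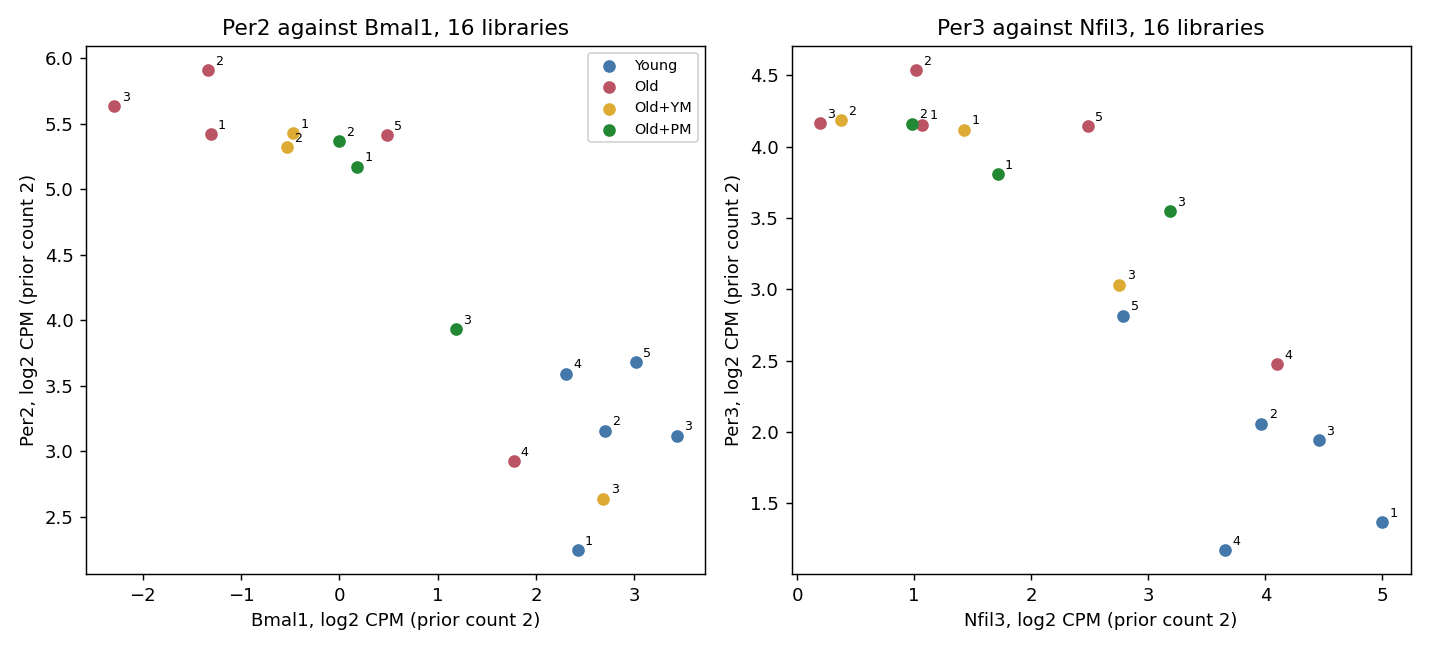
Per2 against Bmal1 (left) and Per3 against Nfil3 (right), both axes in log2 CPM with a prior count of 2, 1 point per library with its replicate number; the pairs were chosen after the values had been seen. Libraries low in Bmal1 were high in Per2, with Old+PM 3 (2.067 CPM of Bmal1 and 15.09 CPM of Per2) between the Young libraries and most aged ones.

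Libraries fell into clusters in these plots, so no correlation between members is given. Among Young libraries, Young 5 had the highest values of Per2 and Per3 and the lowest of Clock, Nfil3, Per1, Cry1 and Cry2. Young 1 had the highest Nfil3 and the lowest Per2. The spread of the members in Young was thus not in 1 direction for all Per genes.

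**Figure D4:**
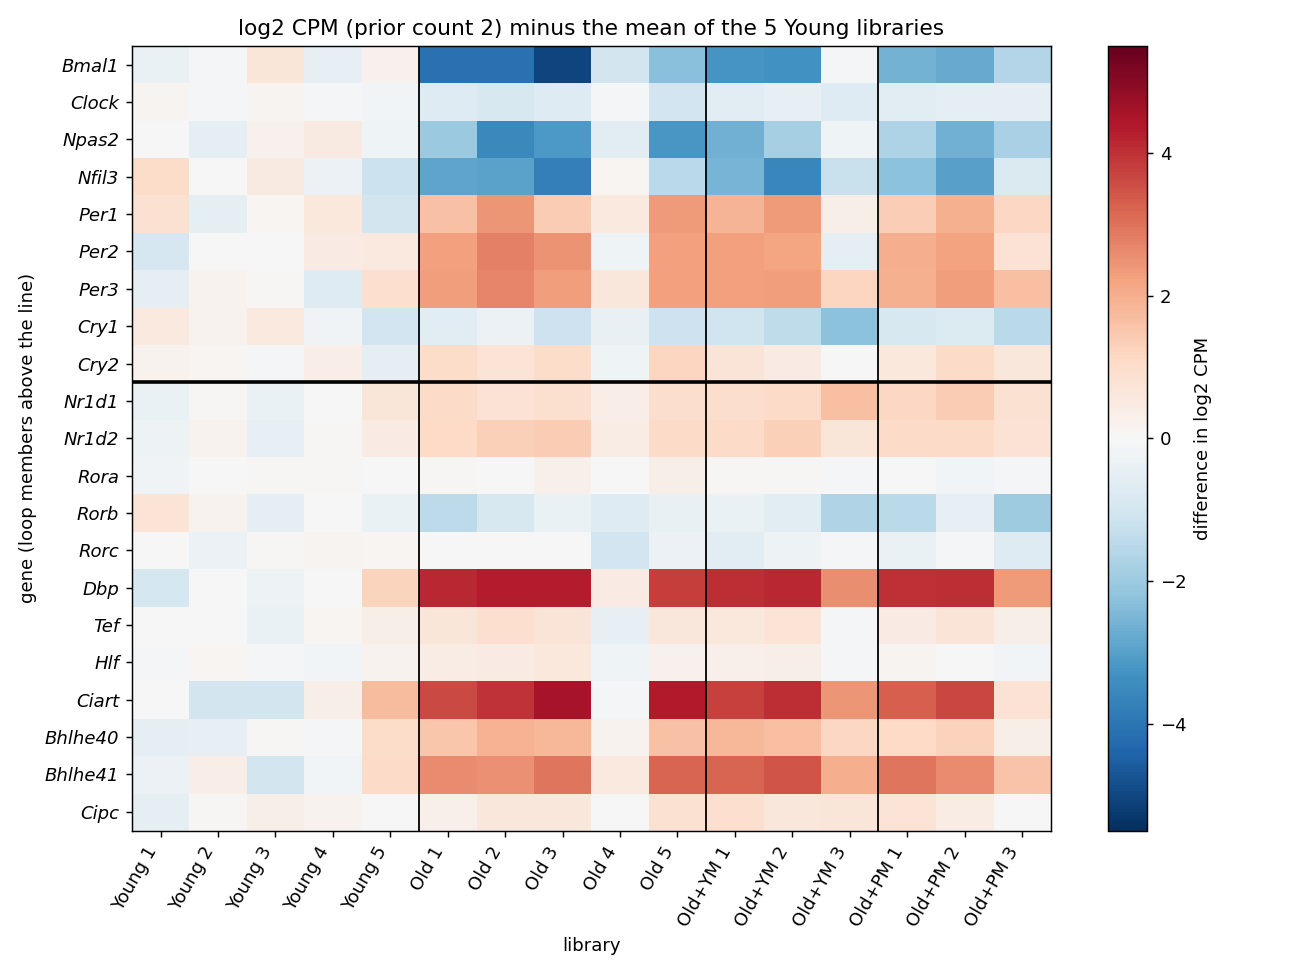
Difference in log2 CPM (prior count 2) from the mean of the 5 Young libraries, as colour, for the 9 loop members (above the line) and 12 other clock genes (below it) in the 16 libraries. Old 4 is pale in nearly every row, Old+YM 3 is pale for Bmal1 and Per2 but not for Nr1d1, and Dbp and Ciart are the darkest red rows in the other aged libraries.

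The REV-ERB repressors stand next to the loop. Of 5 ROR and REV-ERB genes, 2 rose in Old and 0 fell, beside 6.47% and 7.13% of all genes. These were Nr1d1 (REV-ERB alpha) from 28.1 to 48.3 CPM, log2 0.79 (SE 0.19, edgeR adjusted p = 0.0122), and Nr1d2 (REV-ERB beta) from 47.5 to 98.3 CPM, log2 1.05 (SE 0.19, edgeR adjusted p = 0.00165). Both also rose in Old+YM and in Old+PM against Young, beside 6.42% and 2.93% of all genes called higher. Nr1d1 was highest of all libraries in Old+YM 3, at 85.79 CPM, where Bmal1 was at 6.23 CPM and in the Young range. In Old 4, Nr1d1 (34.94 CPM) and Nr1d2 (60.93 CPM) lay within the Young range.

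Among 7 genes of the PAR bZIP factors and E-box repressors, 4 rose in Old and 0 fell, beside 6.47% and 7.13% of all genes. Dbp, a D-box activator driven by the BMAL1 and CLOCK pair, rose from 10.1 to 132.4 CPM, log2 3.73 (SE 0.70, edgeR adjusted p = 0.00478). It had 161.6, 181.8, 178.9, 12.26 and 127.4 CPM in Old 1 to 5 and 4.437 to 20.87 CPM in Young, so Old 4 alone overlapped. Dbp was also lower in Old+YM 3 (52.4 CPM) and Old+PM 3 (45.28 CPM) than in the other treated libraries (145.8 to 159.5 CPM). The E-box repressors Bhlhe40 (log2 1.44), Bhlhe41 (log2 2.61) and Ciart (log2 4.19, from 0.342 CPM in Young) rose too, with edgeR adjusted p of 0.0121, 0.0035 and 0.0122. Ciart had only 0 to 9 counts in Young libraries and 2 to 92 in Old ones. It passed the filter on low counts mainly through aged libraries where it is high, so the size of its change is imprecise. All 7 genes of this list passed without Old 4, where 2656 of all genes were called. Against Young, 5 of the 7 rose in Old+YM and 2, Dbp and Bhlhe41, in Old+PM, beside 6.42% and 2.93% of all genes called higher.

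Kinases, ligases and partners of the clock proteins mostly did not pass. Of 15 such genes 1 rose in Old and 0 fell, beside 6.47% and 7.13% of all genes, so the list was near or below that share. The 1 was Fbxl21, which encodes a ligase subunit for CRY proteins (log2 0.97, edgeR adjusted p = 0.0349). Its call was lost without any one of 6 libraries (Young 1, Young 3, Young 4, Old 2, Old 3 or Old 5). In Old+YM against Young 1 fell (Gsk3b), beside 9.63% of all genes called lower. In Old+PM against Young 1 rose (Fbxl21) and 1 fell (Csnk2a1), beside 2.93% and 3.64% of all genes. The median change of the 15 in Old was log2 0.14, beside 0.02 over all genes tested.

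Lists of inputs to the clock, and a list of clock-linked genes of kidney, were also counted in Old against Young. There 13.6% of all genes were called. Of 10 glucocorticoid-responsive genes 4 rose and 0 fell (Mt1, Mt2, Nfkbia and Tsc22d3), with Tsc22d3 at log2 0.58 (edgeR adjusted p = 0.00847). Of 10 temperature-responsive genes 2 rose, the cold-inducible Cirbp (log2 0.76, edgeR adjusted p = 0.00124) and Rbm3 (log2 1.12, edgeR adjusted p = 0.003). In the same list 5 heat shock genes fell, among them Hsp90aa1 (log2 -0.96, edgeR adjusted p = 0.000299) and Hspd1 (log2 -0.62, edgeR adjusted p = 0.001). Of 13 immediate early genes tested 3 rose (Junb, Klf2 and Klf4). Of 13 clock-linked genes of kidney 2 rose, the cell cycle inhibitors Cdkn1a (log2 1.09) and Wee1 (log2 0.81), and 1 fell, the transferrin receptor Tfrc (log2 -1.25). Without Old 4 that list had 7 changed genes and the immediate early list 5, where 2656 of all genes were called. Leaving out Young 2 or Young 4 left 4 changed temperature genes, Cirbp, Rbm3, Hsp90aa1 and Hspd1. With edgeR none of the genes of these lists, the REV-ERB, PAR bZIP and kinase lists included, was called against Old in either treated group, or between the treated groups. An unadjusted p under 0.05 against Old was held in Old+YM by 3 immediate early genes, 2 of the kinase list and 1 each of the glucocorticoid, temperature and kidney lists, and in Old+PM by 2 of the glucocorticoid and 1 of the kinase list. Over all genes 9.47% and 6.16% had one. Between the treated groups 4 of the kinase list, 2 immediate early genes and 1 of the glucocorticoid list had one, beside 12.8% of all genes.

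The pattern of Bmal1 across the 16 libraries was compared with that of 10294 genes of at least 5 CPM by Pearson r of log2 CPM, as a description. Most like it were Ndrg1 (r = 0.934), Mfsd4b3-ps (0.888), Slc16a1, a lactate and pyruvate transporter (0.872), and Slc10a2, a bile acid transporter (0.863). Ndrg1 had 2619 ± 207 CPM (SD, n = 5) in Young and 1262 ± 600 CPM (n = 5) in Old. The most opposite were Snrk (-0.914), Phldb2 (-0.912), Cys1 (-0.897), Cemip2 (-0.895) and Slc5a6 (-0.883).

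For Per2 the most like genes were Tef, a D-box activator (r = 0.912), Cemip2 (0.912), Cys1 (0.91), Dbp (0.905) and Herpud1 (0.895). The most opposite were Ndrg1 (-0.935), Palm3 (-0.91), Slc16a1 (-0.902), Mfsd4b3-ps (-0.878) and Tmem53 (-0.862). Ndrg1, Slc16a1 and Mfsd4b3-ps were thus among the 5 most like Bmal1 and the 5 most opposite to Per2. Since libraries low in Bmal1 were high in Per2, this overlap is not a separate observation. The points share the same libraries and their clusters, and Mfsd4b3-ps is a pseudogene whose reads may be split with its relatives.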

How the data were processed

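Per the submitters' processing notes, the authors aligned reads with Bowtie2 to mm10 and used bedtools. The deposited values are raw counts per gene symbol. For versions, annotation and strand, nothing is given in the sources used here. The tests used edgeR 4.0.16 under R 4.3.3: filterByExpr (minimum count 10), TMM, and 1 robust quasi-likelihood fit over 16 libraries with a term for group, giving 6 two-sided comparisons. Benjamini-Hochberg adjustment covered 14665 genes, with calls at 0.05. The fit was also run on simulated counts with set changes and no library apart, which does not test the calls made here. log2 CPM has a prior count of 2. Alternatives were DESeq2 1.42.0, limma-voom (limma 3.58.1), RLE and upper quartile scaling, library sizes without the mitochondrial genome, no filter, fits of 2 groups, a replicate block and each library left out. The members and lists were chosen with earlier results of these data known, so their counts are descriptions. Named genes are the 9 members, Nr1d1, Nr1d2 and Dbp, up to 4 called genes per list by smallest adjusted p, the 5 genes most like and the 5 most opposite to Bmal1 and Per2 (1 gene that this rule names is not reported here), and promoter letters of members that changed in Old. Other lists were left out one library at a time after their values had been seen. Coordinates are GRCm38 (GENCODE M21).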

Additional observations from a re-analysis of the deposited data

Results flagged for a closer look

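In each group of 5 libraries the highest and the lowest value of every member were compared with the nearest other library, over the whole range of the group (Dixon's ratio, critical value 0.71). The check was run on log2 CPM and on CPM, because log2 had been chosen after the values were seen, and 18 groups of values were checked on each scale. On log2 CPM 2 were flagged, and on CPM 2 others, all in Old 4, where chance flags about 1 in 20. On log2 CPM, Per2 in Old 4 (7.397 CPM, other Old libraries 42.39 to 60 CPM) had a ratio of 0.833, and 0.665 on CPM. Per3 in Old 4 (5.353 CPM, others 17.46 to 23.02 CPM) had a ratio of 0.808 on log2 CPM and 0.685 on CPM. On CPM, Npas2 in Old 4 (2.823 CPM, others 0.1911 to 0.895 CPM) had a ratio of 0.733, and 0.498 on log2 CPM. Nfil3 in Old 4 (16.94 CPM, others 0.9378 to 5.386 CPM) had a ratio of 0.722 on CPM and 0.414 on log2 CPM.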

How the results depend on the processing

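Against Young, no member changed sign under any alternative. Changed members in Old against Young numbered 4 with no filter on low counts and 3 to 8 with 1 library left out. In Old+YM against Young the range was 2 to 6. In Old+PM against Young they numbered 4 with DESeq2 and with limma-voom, 1 with RLE scaling, with upper quartile scaling and with library sizes without the mitochondrial genome, 7 with libraries of the 2 groups only, and 0 to 4 with 1 library left out. The median SD of the members ranged from 0.397 to 0.923 in Old, 0.185 to 1.12 in Old+YM and 0.184 to 0.58 in Old+PM with 1 library left out. The cause was not tested. Over all genes, 1208 to 2656 were called in Old against Young with 1 library left out. The ranges were 1060 to 3215 in Old+YM against Young and 185 to 1279 in Old+PM against Young. Of all genes, 3 changed in Old+YM against Old, but 49 with DESeq2, 20 with the 2 groups only, 6 with no filter and 0 to 39 with 1 library left out. In Old+PM against Old+YM 0 changed, but 58 with DESeq2, 13 with the 2 groups only, 8 with no filter and 4 with limma-voom.

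Replicate numbers did not pair the libraries: over 20 pairs of the same number the correlation of deviations ran from -0.304 to 0.158 (median -0.00397), with 3 over 0.1. With a replicate block, 5 members changed in Old against Young (Bmal1, Clock, Npas2, Per3 and Cry2, but not Per1, edgeR adjusted p = 0.0583, or Per2, 0.0857), 3 in Old+YM against Young and 2 in Old+PM against Young, and 0 in the other comparisons.

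Sign changes were confined to comparisons between aged groups, where no member was called: 9 of 216 values in Old+YM against Old, 15 of 216 in Old+PM against Old and 17 of 215 in Old+PM against Old+YM. Outside the leave-outs these were, in Old+PM against Old, Nfil3 with limma-voom (0.139) and with the replicate block (0.0975), and Cry2 with limma-voom (0.00752). In Old+PM against Old+YM they were Per1 with limma-voom (0.0101), and Per3 with RLE (0.00147), upper quartile scaling (0.0129), limma-voom (0.0892) and the block (0.0155). With 1 library left out, log2 differences in Old+YM against Old ran from -0.915 to 2.63 for Bmal1, -0.18 to 2.07 for Npas2, -1.56 to 0.488 for Nfil3, -0.523 to 0.322 for Per1, -0.817 to 0.0451 for Per2 and -0.377 to 0.124 for Per3. In Old+PM against Old they ran from -0.156 to 1.65 for Bmal1, -0.178 to 1.16 for Npas2, -1.15 to 0.873 for Nfil3, -0.386 to 2.39e-06 for Per3 and -0.223 to 0.0438 for Cry2. In Old+PM against Old+YM they ran from -1.51 to 1.29 for Bmal1, -0.0131 to 0.0987 for Clock, -1.34 to 0.259 for Npas2, -0.513 to 1.31 for Nfil3, -0.61 to 0.229 for Per1, -0.433 to 0.43 for Per2 and -0.298 to 0.188 for Per3. Bmal1 has no value in Old+PM against Old+YM with libraries of the 2 groups only, since its counts were too low for the filter. Counts of Bmal1 and Npas2 are small in most aged libraries, which limits precision.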
